A study of Mus musculus with 19 samples.

Results

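The genes described are those of phase II conjugation in the mouse liver, 63 gene symbols that name UDP-glucuronosyltransferases (Ugt, 20 symbols), cytosolic sulfotransferases (Sult, 21 symbols) and glutathione S-transferases (Gst, 22 symbols). They were chosen by symbol alone from 51826 gene entries, as Ugt1 to Ugt3, Sult1 to Sult6 and the Gst classes alpha, kappa, mu, omega, pi, theta and zeta. Ugt2a1 stood in 2 rows, both at 0 in every mouse, and was counted once.

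RNA was measured in livers of female Balbc mice aged 12 weeks: 7 nulliparous mice that had not been bred (NUL), 6 mice on lactation day 10 (LAC) and 6 mice on involution day 6 after weaning (ID6). The labels give no genetic change and no agent, and the same strain name, sex and age are given for all groups. The methods speak of flash-frozen caudate lobes in one place and of flash-frozen whole liver in another, and name 2 suppliers of the mice, Charles River Laboratories and The Jackson Laboratory, without saying which mouse came from which. The comparisons ask how liver expression of these enzymes stood in lactation against the nulliparous state, and after weaning against lactation.

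Each mouse has a number in its label, from 1 to 240. In 3 NUL and 3 LAC mice it was under 200, and in 4 NUL, 3 LAC and all 6 ID6 mice it was 200 or above. Many of the conjugation genes separated along this number, and the labels do not say what it stands for. Every ID6 mouse lay in the upper range, so for ID6 the stage and the range can be told apart only against the NUL and LAC mice of that range. For the genes named by the rule, a stage comparison is therefore given with its value among mice numbered 200 and above where that value changes the call.

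Conjugation joins a polar group to a drug, a hormone, bilirubin or a bile acid, so that it can leave the cell and pass into bile or urine. Ugt enzymes sit in the endoplasmic reticulum and mostly transfer glucuronic acid from UDP-glucuronate, Sult enzymes transfer sulfate from PAPS (3'-phosphoadenosine 5'-phosphosulfate) in the cytosol, and Gst enzymes add glutathione to electrophiles. The liver is the main site of all these reactions, and several of the enzymes are known to differ between the sexes and to respond to hormones.

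The Ugt1a genes share their last exons. Each has a promoter and a first exon of its own, which is spliced to the exons common to the cluster. In the GENCODE M21 annotation of GRCm38 the 9 Ugt1a symbols measured lay within 164.6 kb of chromosome 1 (chr1:88055388-88220002, plus strand). The promoters of 5 of them are shown because these neighbours moved apart between the stages, and those of Gsta1 and Gsta2 on chromosome 9 because both genes were lower in the upper number range and share transcript sequence. The sequences are RefSeq's for GRCm38.p6 and run from 150 bases before to 30 bases after the annotated start, 5′ to 3′ on the gene's own strand. Capitals mark the letters GCGTG, the core bound by the Ah receptor, or TTCNNNGAA, the STAT5 type, on either strand.
Ugt1a10: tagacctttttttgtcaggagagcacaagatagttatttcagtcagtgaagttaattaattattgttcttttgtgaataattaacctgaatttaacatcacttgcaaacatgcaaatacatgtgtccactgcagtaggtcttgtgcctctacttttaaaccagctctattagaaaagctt
Ugt1a9: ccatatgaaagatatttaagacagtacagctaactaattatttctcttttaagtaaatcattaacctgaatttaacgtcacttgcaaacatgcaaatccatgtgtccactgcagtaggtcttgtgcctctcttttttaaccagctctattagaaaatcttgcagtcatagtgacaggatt
Ugt1a6a: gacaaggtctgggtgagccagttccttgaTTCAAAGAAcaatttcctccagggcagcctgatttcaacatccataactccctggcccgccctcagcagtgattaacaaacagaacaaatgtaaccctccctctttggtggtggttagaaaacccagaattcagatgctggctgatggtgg
Ugt1a5: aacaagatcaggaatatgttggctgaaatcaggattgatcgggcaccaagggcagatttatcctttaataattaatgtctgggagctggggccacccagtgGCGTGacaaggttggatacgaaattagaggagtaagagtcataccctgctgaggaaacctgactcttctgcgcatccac
Ugt1a1: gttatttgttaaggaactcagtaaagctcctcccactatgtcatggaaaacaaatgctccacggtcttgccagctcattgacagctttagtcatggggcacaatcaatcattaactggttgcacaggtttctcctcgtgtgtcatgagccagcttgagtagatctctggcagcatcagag
Gsta1: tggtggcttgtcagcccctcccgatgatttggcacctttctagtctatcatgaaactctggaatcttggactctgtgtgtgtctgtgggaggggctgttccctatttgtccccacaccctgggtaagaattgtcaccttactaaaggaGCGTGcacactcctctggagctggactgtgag
Gsta2: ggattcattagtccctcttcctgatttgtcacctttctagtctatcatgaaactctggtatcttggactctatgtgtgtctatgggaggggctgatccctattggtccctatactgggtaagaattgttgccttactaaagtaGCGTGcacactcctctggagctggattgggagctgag

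In that order the stretches are chr1:88055261-88055440, chr1:88070629-88070808, chr1:88134659-88134838, chr1:88165862-88166041 and chr1:88211809-88211988 on the plus strand, chr9:78230519-78230698 on the plus strand and chr9:78347116-78347295 on the minus strand. The Ugt1a10 and Ugt1a9 stretches were identical at 69.8% of aligned positions, while every other pair of the 8 Ugt1a promoters held by the table reached 54.3% or less. Gsta1 and Gsta2 were identical at 83.0% of aligned positions. Promoters of 55 of the 63 symbols were in the table, some with more than 1 start, which gave 66 windows of 300 bases. GCGTG was in 19.7% of these windows, against 32.4% of all 32851 windows in the table, and it was at Gsta1, Gsta2, Gstm1, Gstm5, Gstp1, Gstp3, Sult1b1, Sult1d1, Sult2b1, Ugt1a5 and Ugt1a8, which include genes that rose, fell or passed no stage test. TTCNNNGAA was in 6.06% of the windows against 8.30% of all, at Gsta1, Gstm6, Sult3a1 and Ugt1a6a, with the Gsta1 match lying before the stretch shown. TGACNNNGC, the core of the antioxidant response element, was in 4.55% against 12.4% of all, at Gsta3, Gstm5 and Gstm7. Both strands were searched, and GCGTG can overlap TGACNNNGC.

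Values are TPM, the share of transcripts a gene holds once reads are divided by transcript length, which lets levels of different genes be set side by side. Of the 63 symbols, 55 had a mean of at least 0.1 TPM over the 19 mice and were tested (17 Ugt, 17 Sult and 21 Gst). Sult1c1, Sult6b2 and Ugt2a1 were at 0 in every mouse, and Gstt4, Sult2b1, Sult6b1, Ugt1a2 and Ugt1a8 lay between 0 and the minimum. Mean levels of 100 TPM or more were reached by 8 Ugt, 4 Sult and 11 Gst symbols. The highest level of the whole set was that of Gsta3, an alpha-class glutathione transferase, with 1410.2, 2019.9 and 2599 TPM in NUL, 1839.6, 2122 and 2661 TPM in LAC and 1863, 1926 and 2128 TPM in ID6 as the lowest, middle and highest mouse. Its stages overlapped, and no stage difference of Gsta3 passed the test.

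Summed over a family, TPM overlapped between all stages except for Gst in LAC against ID6. The 22 Gst symbols summed to 5195, 6745 and 7524 TPM in NUL, 6969, 7479 and 8007 TPM in LAC and 5879, 6040.4 and 6181 TPM in ID6 (lowest, median and highest mouse). Within each number range the Gst sum of every LAC mouse was above that of every NUL mouse. It was 7597.73 to 8007.2 against 7138.5 to 7524.22 TPM in the lower range, and 6969.07 to 7359.81 against 5194.74 to 6744.84 TPM in the upper. The Ugt and Sult sums of LAC and NUL overlapped in both ranges. The Ugt sums were 1928, 2336 and 3097 TPM in NUL, 2043, 2609 and 3107 TPM in LAC and 2079, 2306 and 2578 TPM in ID6, and the Sult sums 1624, 2081 and 3057, 1846, 2594 and 3238 and 1806, 2348 and 2752 TPM.

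TPM keep no sequencing depth, so the number of reads behind a value is unknown. Between 11209 and 11797 genes per liver were at 1 TPM or more. The 10 most abundant genes held 25.7% to 28.0% of the TPM in NUL, 29.0% to 31.2% in LAC and 26.7% to 28.8% in ID6. The tissue is bulk liver, in which fewer cells of a type and less RNA per cell cannot be told apart. Hepatocyte markers (Alb, Apoa1, Ttr, Cps1 and Hnf4a) summed to 54034 to 88821 TPM in NUL, 95304 to 144982 in LAC and 74895 to 105178 in ID6. Most of this sum was Alb, with means of 55208, 100197 and 62534 TPM in NUL, LAC and ID6. The mean of Ttr was lower in LAC, at 7422, 5437 and 8245 TPM. Apoa1, Cps1 and Hnf4a had means of 8319, 924 and 150 TPM in NUL and 9219, 1045 and 171 TPM in LAC. Markers of other cells moved with the stages. By the same test as the members, all 5 Kupffer cell markers were called lower in LAC than in NUL and higher in ID6 than in either, with sums of 147 to 283, 95.6 to 200.9 and 326 to 467 TPM, and all 5 red blood cell markers were called lower in ID6 than in either, with sums of 1144 to 2407, 1331 to 3336 and 197 to 847 TPM. Of the 5 pericentral hepatocyte markers 3 were called lower in LAC than in NUL and all 5 had a lower mean there, with sums of 2998 to 7645, 1442 to 4135 and 2499 to 4424 TPM. Of the cholangiocyte, sinusoidal endothelial, stellate, periportal and pancreas lists at most 3 genes were called in any stage comparison. No marker in these lists was at 0 in all mice, and the part of these cells and zones in the results below was not tested.

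In lactation 9 of the 55 tested genes were higher and 3 lower than in nulliparous mice (limma, adjusted p under 0.05), against 2.72% higher and 6.49% lower among all 16230 genes tested. By family these were 1 higher and 1 lower of 17 Ugt, 2 higher of 17 Sult, and 6 higher and 2 lower of 21 Gst. Ugt1a5 and Gstm3 also had a log2 difference of at least 1, which 0.746% of all genes did. The median log2 difference was 0.07 over the 55 genes and -0.03 over all genes. All 9 and all 3 were also called with the number range in the model, together with 7 more higher and 5 more lower. That fit called 893 of all 16230 genes higher and 1655 lower. In the upper number range 8 of the 9 and 1 of the 3 were called. That fit gave 13 members higher and 5 lower in all, where 425 and 720 of all 16062 genes were. Among mice numbered under 200, 4 of the 9 and 2 of the 3 were called. In all, 6 members were higher and 5 lower there, where 310 and 388 of all 16265 genes were.

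After weaning more of the genes fell than rose. In ID6 16 of the 55 genes were lower and 6 higher than in LAC, against 4.73% lower and 18.1% higher among all genes. By family these were 4 lower and 3 higher of 17 Ugt, 3 lower and 1 higher of 17 Sult, and 9 lower and 2 higher of 21 Gst. With a log2 difference of at least 1 there were 8 lower (Ugt1a5, Ugt1a9, Ugt1a10, Sult3a2, Sult5a1, Gsta1, Gstm3 and Gstt3) and 1 higher (Sult2a3), against 1.93% of all genes. The median log2 difference was -0.17 over the 55 genes and 0.10 over all genes. The LAC mice are part of both comparisons, which are therefore not independent.

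Among mice numbered 200 and above, 10 of the 16 lower and 4 of the 6 higher calls of ID6 against LAC held, and Gstm3, Sult2a3, Ugt1a5 and Ugt1a9 held past the log2 threshold too. With newly called members, that fit gave 14 lower and 9 higher in all, where 575 and 1685 of all 16062 genes were. Median-ratio scaling of the mice's TPM columns, which takes the median log2 difference of all genes from 0.10 to -0.01, left 18 genes lower and 1 higher, with all 16 lower calls among them. Single mice also bore on the counts past both thresholds. The count for LAC against NUL was 4 without mouse NUL_13 or LAC_200, and 5 without mouse NUL_4 or LAC_240. That for ID6 against LAC was 4 without mouse LAC_102, LAC_133 or LAC_36 and 5 without mouse ID6_218 or ID6_232.

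**Figure D1:**
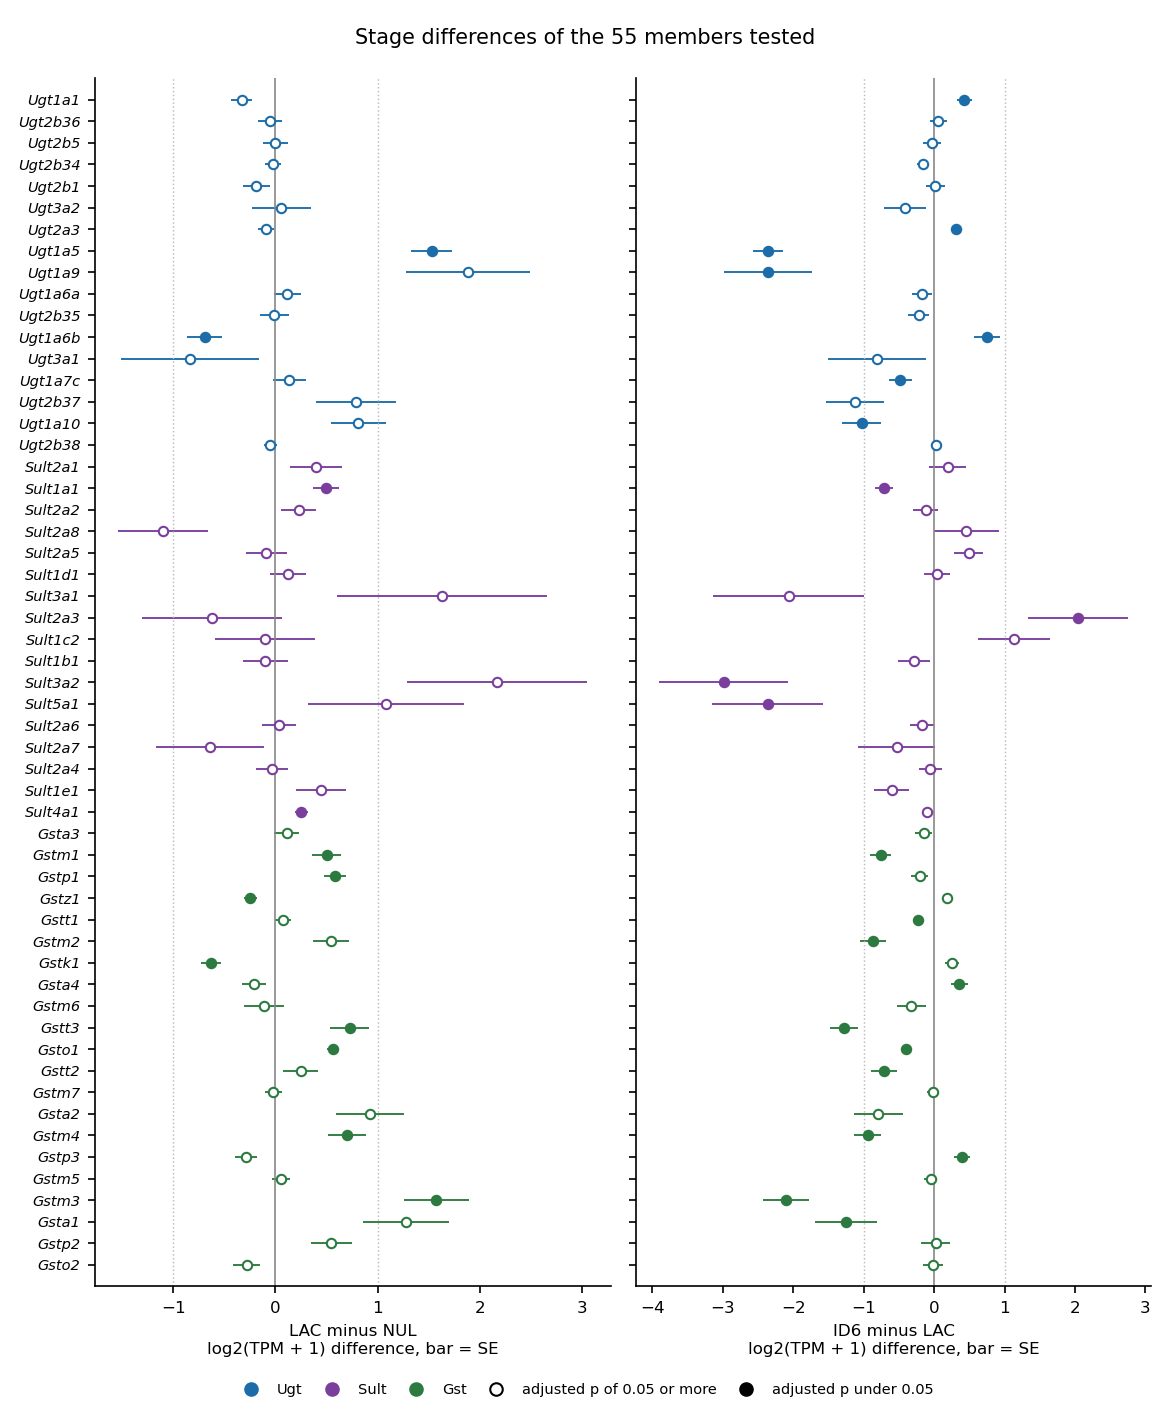
Difference in log2(TPM + 1) of the 55 tested genes (one row each, by family and falling mean level), with LAC minus NUL on the left and ID6 minus LAC on the right. Bars are the SE of the limma fit over 19 mice, filled points have an adjusted p under 0.05 and dotted lines mark a difference of 1. Ugt1a5 stands at 1.53 on the left and -2.36 on the right, and 16 filled points lie left of 0 on the right.

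Of the glucuronosyltransferases only Ugt1a5 was called in all 3 stage comparisons. Its lowest, median and highest mice were 59.9, 75.8 and 99.3 TPM in NUL, 157, 231 and 298 TPM in LAC and 25, 43.1 and 72.1 TPM in ID6. Every LAC mouse was above every NUL and ID6 mouse. Its log2 difference was 1.53 ± 0.20 (SE, adjusted p = 0.000139) for LAC against NUL, and -2.36 ± 0.21 (SE, adjusted p = 8.55e-07) for ID6 against LAC. The mean fell to 44.9 TPM in ID6, 5.12-fold under the LAC mean. Neither difference lost its call under any of the alternatives run.

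Ugt1a9, a form that conjugates phenols and many drugs, was at 12, 18.7 and 132.5 TPM in NUL, 55.2, 184 and 306 TPM in LAC and 18.7, 27.4 and 32.5 TPM in ID6. It separated by number range within each stage, at 88 to 132.5 TPM and 12 to 18.7 TPM in NUL mice numbered under 200 and from 200, and at 287 to 306 and 55.2 to 80.5 TPM in LAC. Within each range every LAC mouse was above every NUL mouse, although the NUL and LAC groups as a whole overlapped, and every ID6 mouse was below every LAC mouse. The log2 difference of LAC against NUL was 1.89 ± 0.61 (SE, adjusted p = 0.0574) without regard to the range. It was 2.01 ± 0.21 (SE, adjusted p = 0.000225) among mice numbered 200 and above, and 1.35 ± 0.16 (SE, adjusted p = 0.015) among those under 200. ID6 against LAC was -2.36 ± 0.63 (SE, adjusted p = 0.011), and -1.26 ± 0.19 (SE, adjusted p = 0.000682) among mice numbered 200 and above, so the size of this fall depends on which LAC mice are used.

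Ugt1a10, whose promoter stretch is the one most like that of Ugt1a9, was expressed near 1 TPM. It was at 0.03, 0.37 and 1.5 TPM in NUL, 0.36, 1.98 and 3.24 TPM in LAC and 0.03, 0.355 and 0.79 TPM in ID6, and the stages overlapped. Its log2 difference was 0.81 ± 0.27 (SE, adjusted p = 0.0629) for LAC against NUL, and -1.03 ± 0.28 (SE, adjusted p = 0.012) for ID6 against LAC. Among mice numbered 200 and above the latter was -0.49 ± 0.19 (SE, adjusted p = 0.108), no longer past the test. LAC against NUL was not called in that range, but was called higher with the number range as covariate and among mice numbered under 200.

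Ugt1a1 and Ugt1a6b were higher in ID6 than in LAC, opposite to Ugt1a5. Ugt1a1, the enzyme that conjugates bilirubin and the most abundant Ugt, was at 466, 558 and 626 TPM in NUL, 340.3, 444 and 535 TPM in LAC and 517, 594 and 649.5 TPM in ID6. The stages overlapped. ID6 was higher than LAC by 0.43 ± 0.11 (SE, adjusted p = 0.00708), a call that is lost with median-ratio scaling (0.27, adjusted p = 0.149). LAC against NUL was -0.33 ± 0.10 (SE, adjusted p = 0.0512). Among mice numbered 200 and above it was -0.53 ± 0.10 (SE, adjusted p = 0.00768).

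Ugt1a6b, one of the pair of mouse forms that conjugate small planar phenols, was at 48.7, 63.3 and 65.3 TPM in NUL, 24.3, 37.2 and 59.2 TPM in LAC and 58.7, 61.6 and 69 TPM in ID6. It fell in LAC against NUL, with a log2 difference of -0.69 ± 0.17 (SE, adjusted p = 0.0167), and rose in ID6 against LAC, with 0.75 ± 0.18 (SE, adjusted p = 0.00583). The 3 LAC mice numbered under 200 were lowest of all at 24.3 to 28 TPM. In the upper range, which leaves out the NUL mice numbered under 200 as well, neither call held, with -0.22 ± 0.09 (SE, adjusted p = 0.197) for LAC against NUL and 0.24 ± 0.09 (SE, adjusted p = 0.0744) for ID6 against LAC.

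Ugt1a6a, its neighbour in the cluster, was at 61.6, 73.7 and 83.7 TPM in NUL, 54.1, 82.8 and 104 TPM in LAC and 62.4, 69.6 and 79.7 TPM in ID6, and no stage difference passed the test. The LAC mice numbered 200 and above held 98.2 to 104 TPM, above all other mice, and those under 200 held 54.1 to 67.3 TPM. Among mice numbered 200 and above LAC was higher than NUL by 0.41 ± 0.10 (SE, adjusted p = 0.0231). ID6 there was lower than LAC by -0.52 ± 0.09 (SE, adjusted p = 0.00163).

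The whole Ugt1a cluster summed to 659.8 to 969 TPM in NUL, 739 to 1195 in LAC and 714 to 873 in ID6, and these values overlapped. In the lower number range the sum was higher in LAC without overlap, at 1174.56 to 1194.78 against 837.5 to 968.86 TPM in NUL. In the upper number range LAC and NUL overlapped, at 738.65 to 796.29 and 659.82 to 819.87 TPM. The make-up of the cluster differed between the stages. Ugt1a5 held 9.49% ± 1.67 (SD, n = 7) of the cluster's TPM in NUL, 23.4% ± 2.21 (SD, n = 6) in LAC and 5.7% ± 2.18 (SD, n = 6) in ID6, and Ugt1a1 held 66.7% ± 4.38 (SD, n = 7), 45.5% ± 2.97 (SD, n = 6) and 73.7% ± 2.52 (SD, n = 6). The LAC shares of both overlapped with neither other stage. With the Ugt1a entries summed into 1 row and all mice in the fit, LAC against NUL was 0.22 ± 0.12 (SE, adjusted p = 0.288). The expressed Ugt1a entries share 50.4% to 70.9% of their transcript windows of 100 bases with at least 1 other gene. The authors' counting has to divide reads of the common exons between the forms, so levels of single Ugt1a forms are less certain than their sum.

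**Figure D2:**
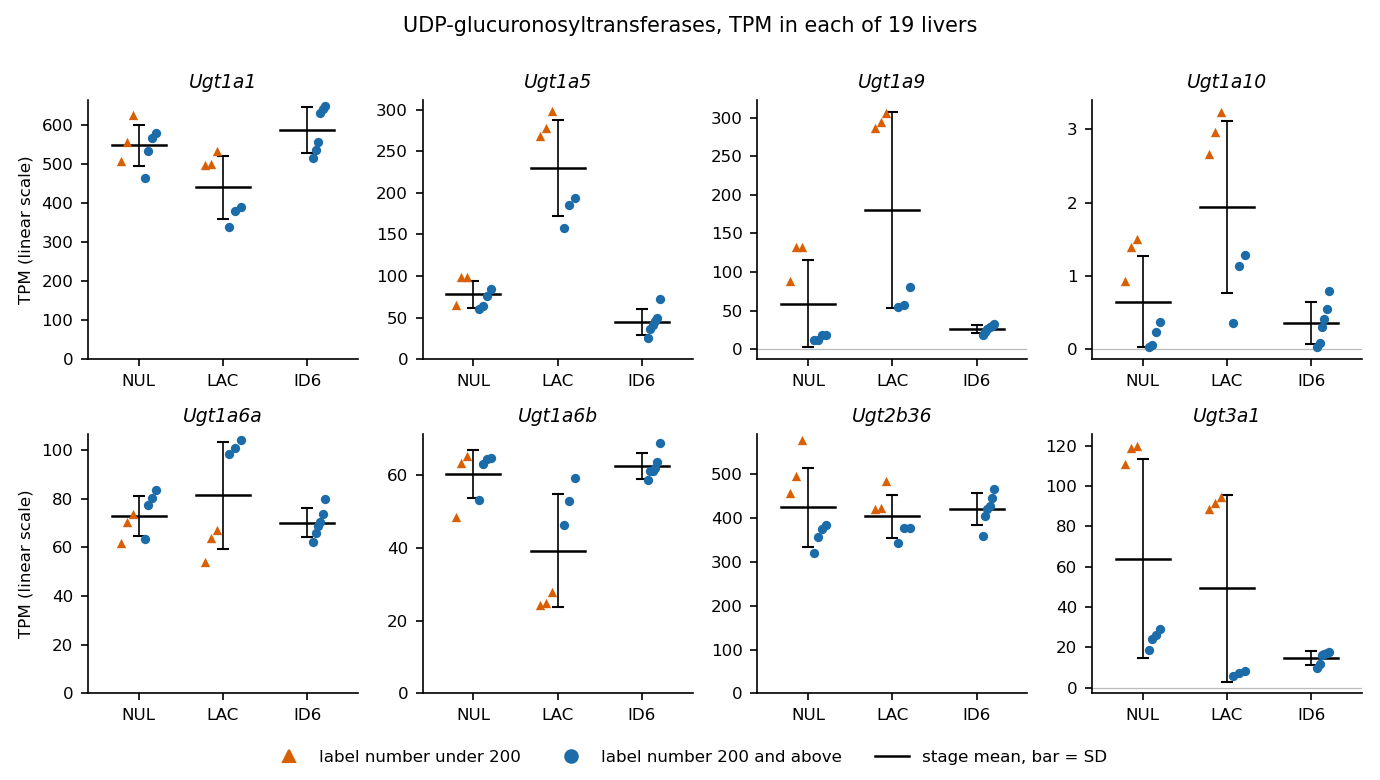
TPM on a linear scale of 8 Ugt genes in each of the 19 livers, by stage, with triangles for label numbers under 200 and circles for 200 and above. Lines are stage means and bars SD (n = 7 NUL, 6 LAC, 6 ID6). All LAC points of Ugt1a5 lie above those of NUL and ID6, and Ugt1a9 and Ugt3a1 separate by label number within NUL and within LAC.

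With stage alone in the fit of the deposited TPM, no Ugt gene outside the Ugt1a cluster was called in LAC against NUL. Only Ugt2a3 was called in ID6 against LAC. The Ugt2b enzymes, which conjugate steroids and bile acids, were led by Ugt2b36, Ugt2b5 and Ugt2b34. Ugt2b36 was at 319, 384 and 577 TPM in NUL, 344, 398 and 483 TPM in LAC and 359, 424 and 465 TPM in ID6. Ugt2b5 was at 291, 397 and 491 TPM in NUL, 343, 404 and 428 TPM in LAC and 303, 385 and 479.8 TPM in ID6, and Ugt2b34 at 180.1, 211 and 221.2 TPM in NUL, 172, 202 and 237 TPM in LAC and 167, 180.2 and 197 TPM in ID6. The stages overlapped for all of them, and no stage difference passed the test in that fit. In ID6 against LAC, Ugt2b36 was called higher with the number range as covariate, and Ugt2b34 lower with median-ratio scaling. The log2 differences of LAC against NUL were -0.05 ± 0.12 (SE) for Ugt2b36, -0.0028 ± 0.12 (SE) for Ugt2b5 and -0.02 ± 0.08 (SE) for Ugt2b34.

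Ugt2a3, which also takes bile acids, was at 120.0, 126 and 166 TPM in NUL, 109, 129 and 142 TPM in LAC and 146, 161 and 165 TPM in ID6. Every ID6 mouse was above every LAC mouse, with a log2 difference of 0.32 ± 0.08 (SE, adjusted p = 0.00975), which was not called with median-ratio scaling (0.15, adjusted p = 0.361). Ugt3a1, which uses UDP-N-acetylglucosamine in place of UDP-glucuronate, was at 18.9, 29 and 119.8 TPM in NUL, 5.93, 48.4 and 94.3 TPM in LAC and 9.72, 16.6 and 17.8 TPM in ID6. None of its stage differences passed the test over all mice, and its levels separated by the label number, as given further on. In the upper range ID6 exceeded LAC, at 9.72 to 17.8 against 5.93 to 8.11 TPM and a log2 difference of 0.95 ± 0.18 (SE, adjusted p = 0.00361). Ugt3a2, its neighbour on chromosome 15, was at 109, 121 and 242 TPM in NUL, 87.5, 173 and 281 TPM in LAC and 97.3, 119 and 130.3 TPM in ID6, with overlapping stages and no stage difference past the test. In the upper range it was higher in ID6 than in LAC by 0.34 ± 0.09 (SE, adjusted p = 0.0183).

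Sult1a1, the main enzyme for phenols, was the only one of the 4 most abundant sulfotransferases called with stage alone in the fit. Sult2a8, another of these 4, was called within the number ranges, as given below. It was at 413, 566 and 680.3 TPM in NUL, 610.4, 793 and 1037 TPM in LAC and 442, 471 and 549.6 TPM in ID6. LAC and NUL overlapped, while every LAC mouse was above every ID6 mouse. The log2 difference was 0.49 ± 0.13 (SE, adjusted p = 0.0197) for LAC against NUL, and -0.71 ± 0.13 (SE, adjusted p = 0.000743) for ID6 against LAC. In the upper number range the former was 0.35 ± 0.14 (SE, adjusted p = 0.169). Without any 1 of mice LAC_102 and LAC_36, the rise in LAC was no longer called (log2 difference 0.42 to 0.44, adjusted p = 0.0505 to 0.054).

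The Sult2a enzymes sulfate hydroxysteroids and bile acids. Sult2a1 was at 255, 768 and 1143 TPM in NUL, 681, 830.0 and 1073 TPM in LAC and 704, 964 and 1222 TPM in ID6, and Sult2a2 at 222, 286 and 509.6 TPM in NUL, 280.4, 363 and 506 TPM in LAC and 284, 352 and 384 TPM in ID6. The stages overlapped in both and no stage difference passed the test. The 8 Sult2a symbols summed to 994 to 2110.4 TPM in NUL, 1115 to 1843 in LAC and 1214 to 2041 in ID6.

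Other Sult2a genes differed more. Sult2a8, a bile acid sulfotransferase of mouse liver, was at 180.4, 237 and 632 TPM in NUL, 41.7, 186 and 315 TPM in LAC and 117, 207 and 245 TPM in ID6, with a log2 difference of -1.10 ± 0.44 (SE, adjusted p = 0.132) for LAC against NUL. In each range the LAC mice were below the NUL mice, at 41.7 to 89 against 180.4 to 237 TPM from 200 upward, and 284 to 315 against 444 to 632 TPM under 200. The difference then passed the test, with -1.61 ± 0.26 (SE, adjusted p = 0.00256) in the upper range, and -0.78 ± 0.14 (SE, adjusted p = 0.0352) in the lower. Within the upper range ID6 exceeded LAC by 1.54 ± 0.24 (SE, adjusted p = 0.000784).

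Sult2a3 was at 1.4, 45.6 and 126 TPM in NUL, 10.7, 13.9 and 32.9 TPM in LAC and 30.4, 74.2 and 94.2 TPM in ID6. It rose in ID6 against LAC, with a log2 difference of 2.04 ± 0.71 (SE, adjusted p = 0.0456), and the groups overlapped at 1 ID6 mouse. With mice of the upper range alone this was 1.55 ± 0.35 (SE, adjusted p = 0.00955), and LAC against NUL there was -1.55 ± 0.38 (SE, adjusted p = 0.0271). With the number range as covariate over all mice, ID6 against LAC was 0.93 ± 0.54 (SE, adjusted p = 0.274) and not called. The ID6 difference was not called with median-ratio scaling (1.88, adjusted p = 0.0758) or with quantile scaling. It was no longer called without any 1 of mice NUL_4, LAC_102, LAC_133, LAC_200, LAC_240, LAC_36, ID6_201, ID6_209, ID6_218, ID6_230 and ID6_232 (log2 difference 1.94 to 2.11, adjusted p = 0.0505 to 0.0884).

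Sult3a1 and Sult3a2, neighbours on chromosome 10 known for sulfating amines, and Sult5a1 were low in all ID6 mice. Sult3a1 was at 0.72, 14.5 and 189 TPM in NUL, 5.13, 99 and 202 TPM in LAC and 4.84, 18.2 and 30.01 TPM in ID6. Sult3a2 was at 0.12, 0.56 and 31.8 TPM in NUL, 0.79, 27 and 62.5 TPM in LAC and 0.39, 1.12 and 3.92 TPM in ID6, and Sult5a1 at 0.12, 0.33 and 20.9 TPM in NUL, 0.26, 8 and 21.8 TPM in LAC and 0.1, 0.44 and 0.82 TPM in ID6. In NUL and LAC their high values were those of the mice numbered under 200, and the stages overlapped. ID6 against LAC was -2.98 ± 0.92 (SE, adjusted p = 0.0247) for Sult3a2. It was -2.37 ± 0.79 (SE, adjusted p = 0.0371) for Sult5a1, and -2.06 ± 1.07 (SE, adjusted p = 0.177) for Sult3a1. In the upper number range it was -1.50 ± 0.52 (SE, adjusted p = 0.0703) for Sult3a2, and -1.15 ± 0.37 (SE, adjusted p = 0.0553) for Sult5a1, so neither call held within the range that all ID6 mice belong to. Without any 1 of mice LAC_102, LAC_133, LAC_36 and ID6_232, the fall of Sult3a2 was no longer called (log2 difference -2.85 to -2.62, adjusted p = 0.0508 to 0.0638). That of Sult5a1 was no longer called without any 1 of mice LAC_102, LAC_133, LAC_200, LAC_36, ID6_201, ID6_209, ID6_216, ID6_218, ID6_230 and ID6_232 (log2 difference -2.44 to -2.04, adjusted p = 0.051 to 0.0902).

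In that same range LAC exceeded NUL for Sult3a2. The 3 LAC mice were at 0.79 to 11.6 TPM and the 4 NUL mice at 0.12 to 0.56 TPM, a log2 difference of 2.32 ± 0.56 (SE, adjusted p = 0.0233). Sult1e1, which inactivates estrogens, stayed at 2.94 TPM or lower in every mouse. Sult4a1, the form known from brain, was called higher in LAC at means of only 0.0757 TPM in NUL and 0.285 TPM in LAC. These last 2 genes fall outside the rule for named genes and were chosen after their values were seen.

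**Figure D3:**
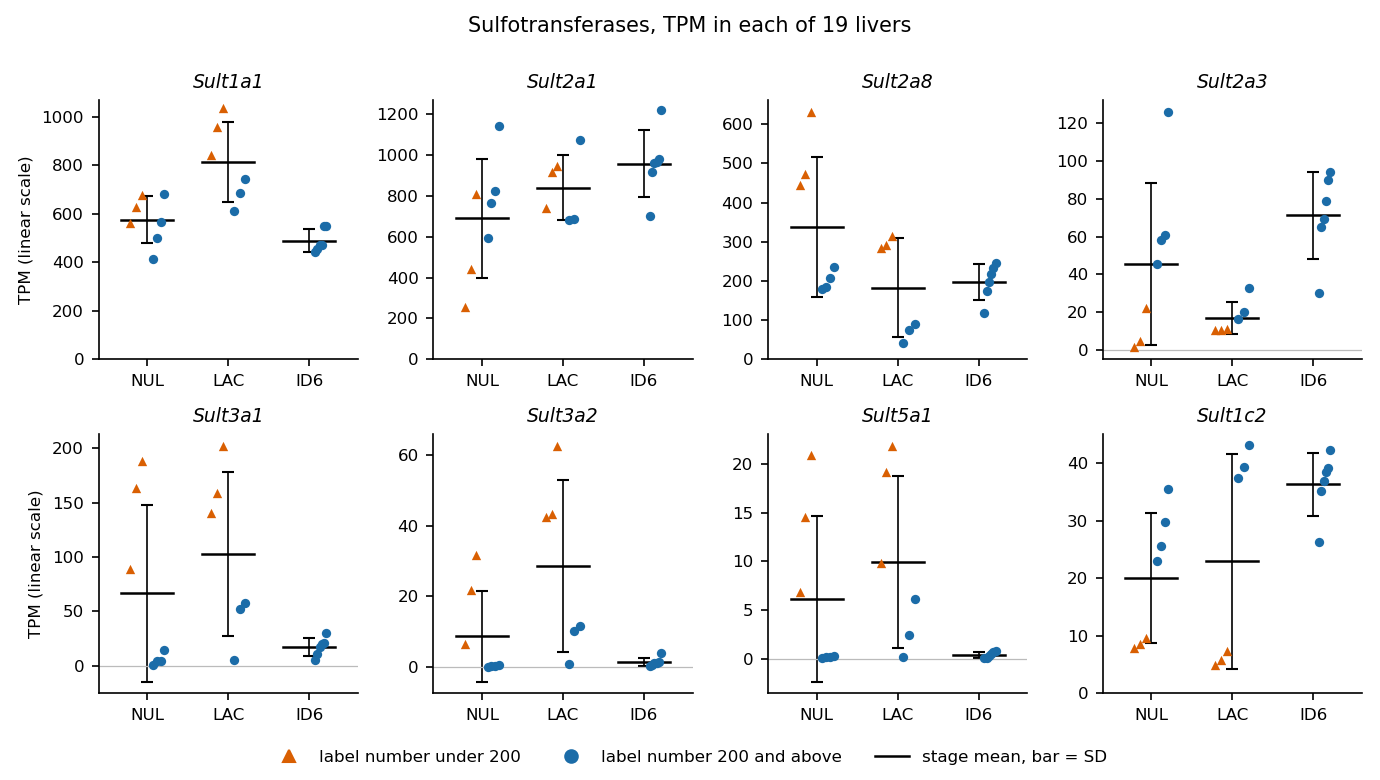
TPM on a linear scale of 8 Sult genes in each of the 19 livers, by stage, with triangles for label numbers under 200 and circles for 200 and above. Lines are stage means and bars SD (n = 7 NUL, 6 LAC, 6 ID6). LAC points of Sult1a1 lie above all ID6 points, and Sult3a1, Sult3a2, Sult5a1 and Sult1c2 separate by label number within NUL and within LAC.

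The glutathione transferases gave 8 of the 12 calls in lactation and 11 of the 22 after weaning. Of the mu class Gstm1, Gstm3 and Gstm4 were higher in LAC than in NUL, and these and Gstm2 lower in ID6 than in LAC. Gstm3 was at 5.23, 12.9 and 27.6 TPM in NUL, 23.8, 34.4 and 71 TPM in LAC and 7.43, 8.52 and 11.7 TPM in ID6. The LAC mice overlapped the NUL mice at the top of NUL and lay above all ID6 mice. The log2 difference was 1.58 ± 0.32 (SE, adjusted p = 0.00405) for LAC against NUL, and -2.10 ± 0.33 (SE, adjusted p = 0.000173) for ID6 against LAC. Among mice numbered under 200 the rise in lactation was 1.21 ± 0.29 (SE, adjusted p = 0.0654), which did not pass, and among those from 200 upward it was 1.75 ± 0.23 (SE, adjusted p = 0.00081).

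Gstm1, the most abundant mu-class enzyme, was at 757, 1152 and 1479 TPM in NUL, 1238, 1587 and 1974 TPM in LAC and 829.6, 947 and 1066 TPM in ID6. Gstm4 was at 35.3, 47.1 and 83.9 TPM in NUL, 78.7, 87.4 and 101.8 TPM in LAC and 39.9, 44.4 and 53.1 TPM in ID6, and Gstm2 at 173, 233 and 308 TPM in NUL, 213.4, 345 and 464 TPM in LAC and 143, 180.1 and 256 TPM in ID6. Every LAC mouse was above every ID6 mouse for Gstm1 and Gstm4, while the groups overlapped for Gstm2. LAC against NUL was 0.50 ± 0.14 (SE, adjusted p = 0.0302) for Gstm1. It was 0.70 ± 0.18 (SE, adjusted p = 0.0199) for Gstm4, and 0.55 ± 0.18 (SE, adjusted p = 0.058) for Gstm2. For Gstm2 the same difference was called with the range as covariate, with median-ratio scaling, and in the upper range, where LAC was at 397 to 464 and NUL at 182 to 308 TPM (0.78, adjusted p = 0.0218). ID6 against LAC was -0.76 ± 0.15 (SE, adjusted p = 0.000983) for Gstm1. It was -0.94 ± 0.19 (SE, adjusted p = 0.00139) for Gstm4, and -0.86 ± 0.18 (SE, adjusted p = 0.0022) for Gstm2, and none of these falls lost its call under the alternatives run. Without any 1 of mice NUL_221, NUL_226, NUL_227, LAC_133, LAC_240 and LAC_36, the rise of Gstm1 in LAC was no longer called (log2 difference 0.41 to 0.49, adjusted p = 0.0547 to 0.0702). Among mice numbered under 200 the LAC differences of Gstm1 and Gstm4 did not pass, at 0.26 ± 0.13 (SE, adjusted p = 0.3) and 0.20 ± 0.09 (SE, adjusted p = 0.259). Neither passed with only the NUL and LAC mice in the fit.

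Gstt3, a theta-class transferase, was at 64.8, 122.7 and 165 TPM in NUL, 144, 186 and 255 TPM in LAC and 64.7, 78.3 and 83.2 TPM in ID6. Its LAC mice lay above every ID6 mouse, and overlapped the NUL mice only where the number ranges were mixed. Within each number range every LAC mouse was above every NUL mouse. The log2 difference was 0.73 ± 0.19 (SE, adjusted p = 0.0215) for LAC against NUL, and -1.28 ± 0.20 (SE, adjusted p = 0.000149) for ID6 against LAC. Within the upper range the fall was -0.97 ± 0.15 (SE, adjusted p = 0.000939), still called and just under the log2 threshold of 1. The rise in LAC was no longer called without mouse LAC_102 (log2 difference 0.64, adjusted p = 0.0589).

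Gsto1, an omega-class enzyme with dehydroascorbate and thiol reductase activity, had small differences with little spread. It was at 87.4, 100.4 and 106 TPM in NUL, 131, 145 and 158 TPM in LAC and 101, 110.1 and 116 TPM in ID6. Every LAC mouse was above every NUL and ID6 mouse. The log2 difference was 0.56 ± 0.06 (SE, adjusted p = 3.2e-05) for LAC against NUL, and -0.40 ± 0.07 (SE, adjusted p = 0.000224) for ID6 against LAC. Both calls held under every alternative run.

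Gstp1, the pi-class enzyme, was at 470.5, 573 and 609 TPM in NUL, 643, 883 and 956 TPM in LAC and 565, 745 and 836 TPM in ID6. Every LAC mouse was above every NUL mouse, with a log2 difference of 0.58 ± 0.11 (SE, adjusted p = 0.00249). ID6 lay between, overlapping both, at -0.21 ± 0.12 (SE, adjusted p = 0.208) against LAC. In the upper range every ID6 mouse was below every LAC mouse, at 565 to 836 against 927 to 956 TPM, and the difference passed, at -0.41 ± 0.11 (SE, adjusted p = 0.0206), as it did with the range as covariate and with median-ratio scaling. Among mice numbered under 200 the rise in lactation did not pass, at 0.51 ± 0.11 (SE, adjusted p = 0.0552). Gstp1 and Gstp2 share transcript sequence, and with Gstp1, Gstp2 and Gstp3 summed LAC against NUL was 0.53 ± 0.11 (SE, adjusted p = 0.00346). Gstp3 was higher in ID6 than in LAC, at 36.3, 46 and 48.8 TPM in NUL, 27.6, 39 and 42.1 TPM in LAC and 38.88, 48 and 62.5 TPM in ID6, with a log2 difference of 0.39 ± 0.11 (SE, adjusted p = 0.0167), and that call was not made with median-ratio or quantile scaling, with the range as covariate (0.36, adjusted p = 0.0547) or in the upper range (0.26, adjusted p = 0.206).

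Gstk1 and Gstz1 were lower in lactation. Gstk1, the kappa-class enzyme of mitochondria and peroxisomes, was at 187, 248 and 295 TPM in NUL, 138, 161 and 178 TPM in LAC and 167, 188 and 217.5 TPM in ID6. Every LAC mouse was below every NUL mouse, with a log2 difference of -0.63 ± 0.10 (SE, adjusted p = 0.000437). ID6 against LAC was 0.26 ± 0.10 (SE, adjusted p = 0.0705), and 0.39 ± 0.11 (SE, adjusted p = 0.0324) in the upper range. Gstz1, which isomerises maleylacetoacetate in the breakdown of tyrosine, was at 651, 722 and 793 TPM in NUL, 579, 609 and 658 TPM in LAC and 606, 698 and 779 TPM in ID6, with -0.25 ± 0.07 (SE, adjusted p = 0.0255) and overlapping groups. The Gstz1 call was not made with median-ratio or quantile scaling, in the upper range (-0.26, adjusted p = 0.131) or among mice numbered under 200 (-0.24, adjusted p = 0.0921). Without any 1 of mice NUL_220, LAC_213 and LAC_240, the same difference was no longer called (log2 difference -0.23 to -0.22, adjusted p = 0.0516 to 0.0543).

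In the alpha class Gsta4, which conjugates the lipid peroxidation product 4-hydroxynonenal, was at 143, 196 and 282 TPM in NUL, 143, 164 and 186 TPM in LAC and 189, 209.2 and 235 TPM in ID6. Every ID6 mouse was above every LAC mouse, with 0.36 ± 0.12 (SE, adjusted p = 0.0441), a call that is lost with median-ratio scaling (0.20, adjusted p = 0.425). It was no longer called without any 1 of mice NUL_13, NUL_220, LAC_102, LAC_200, LAC_213, LAC_240, ID6_201, ID6_209, ID6_216 and ID6_232 (log2 difference 0.32 to 0.38, adjusted p = 0.0503 to 0.0955). Gsta1 was at 1.91, 3.65 and 16.1 TPM in NUL, 5.78, 15.7 and 29.1 TPM in LAC and 3.14, 5.5 and 7.43 TPM in ID6, with overlapping stages. ID6 against LAC was -1.25 ± 0.44 (SE, adjusted p = 0.0464). With mice of the upper range alone it was -0.36 ± 0.31 (SE, adjusted p = 0.488), with the LAC mice numbered under 200 at 23.3 to 29.1 TPM and the others at 5.78 to 8.01 TPM. Without any 1 of mice NUL_1, NUL_220, NUL_221, LAC_102, LAC_133, LAC_36, ID6_201, ID6_209, ID6_216, ID6_218, ID6_230 and ID6_232, the fall was no longer called (log2 difference -1.35 to -1.04, adjusted p = 0.0501 to 0.11). Gsta2 was at 30, 76.9 and 152 TPM in NUL, 67.7, 127 and 220.7 TPM in LAC and 60.9, 67.9 and 81.1 TPM in ID6, with -0.79 ± 0.35 (SE, adjusted p = 0.109) for ID6 against LAC, and the stages overlapped. In LAC against NUL, Gsta1 and Gsta2 were not called over all mice or within either range alone. Both were called higher in LAC with the number range as covariate. Gsta1 shares 80.6% of its transcript windows with other genes, so its reads could be split. Its main partner is Gm3776, with 64.7% of its windows, a gene outside the set described. With Gsta2 added to Gsta1, ID6 against LAC was -0.84 ± 0.35 (SE, adjusted p = 0.0968). Gm3776 is not in this sum, which therefore does not settle how reads were split.

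**Figure D4:**
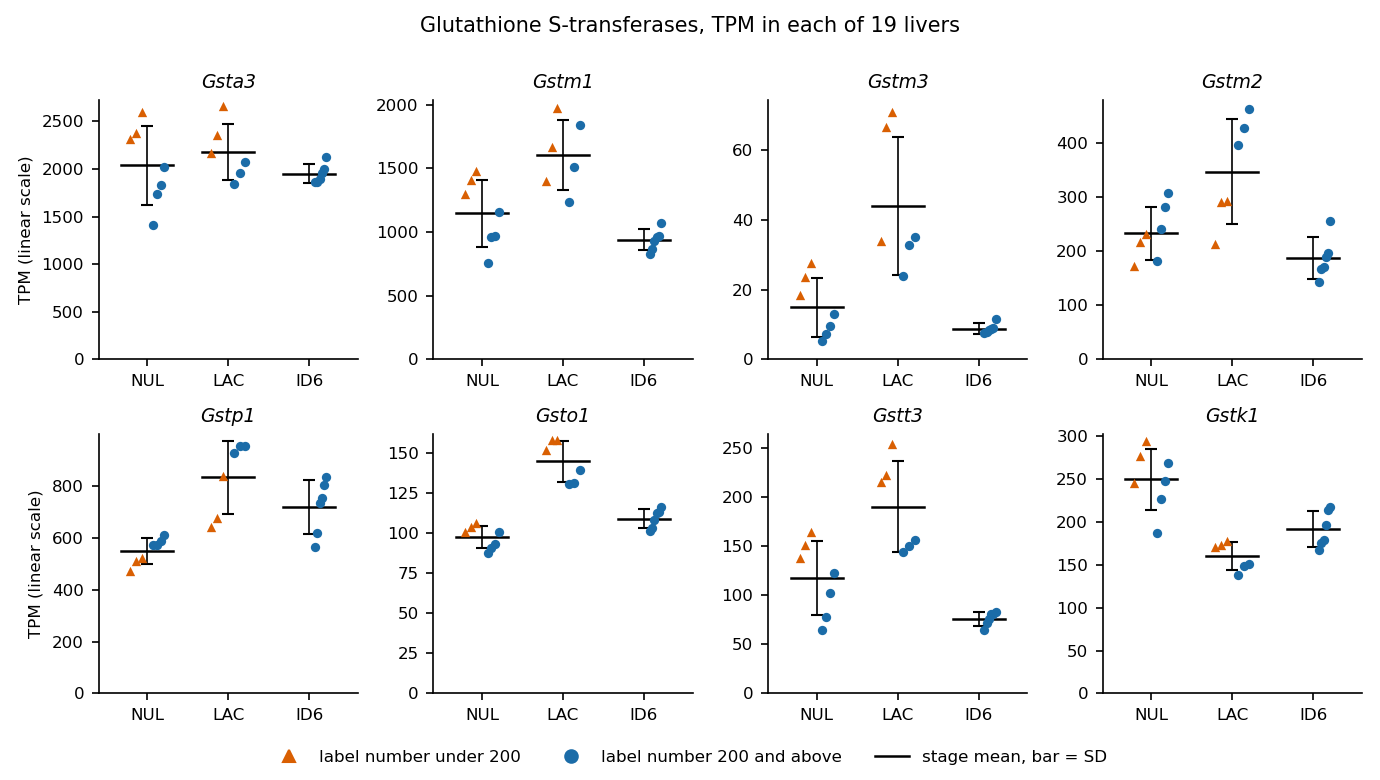
TPM on a linear scale of 8 Gst genes in each of the 19 livers, by stage, with triangles for label numbers under 200 and circles for 200 and above. Lines are stage means and bars SD (n = 7 NUL, 6 LAC, 6 ID6). LAC points lie above all ID6 points for Gstm1, Gstm3, Gsto1 and Gstt3, and below all NUL points for Gstk1.

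Few differences passed the test between involution day 6 and the nulliparous state. In ID6 against NUL 0 of the 55 genes were higher and 2 lower (Ugt1a5 and Gstk1) in the limma fit, against 3.44% higher and 0.912% lower among all genes. Of the 55 genes 16 had an unadjusted p under 0.05, and the share of all genes for this was not counted. No member was past both thresholds, against 0.253% of all genes. The log2 difference was -0.83 ± 0.20 (SE, adjusted p = 0.0297) for Ugt1a5, and -0.37 ± 0.10 (SE, adjusted p = 0.0373) for Gstk1. In the upper number range neither passed, at -0.71 ± 0.21 (SE, adjusted p = 0.174) and -0.27 ± 0.10 (SE, adjusted p = 0.281), and Ugt2a3 was higher in ID6 by 0.34 ± 0.06 (SE, adjusted p = 0.0263). Ugt1a5 was no longer called without any 1 of mice NUL_1, NUL_13, ID6_201, ID6_209, ID6_216 and ID6_232 (log2 difference -0.85 to -0.68, adjusted p = 0.0543 to 0.0707). Without any 1 of mice NUL_1, NUL_13, NUL_221, NUL_4, ID6_209, ID6_216, ID6_230 and ID6_232, Gstk1 was no longer called (log2 difference -0.38 to -0.33, adjusted p = 0.0577 to 0.0875). For Ugt3a1 every ID6 mouse was below every NUL mouse, at -1.65 ± 0.67 (SE, adjusted p = 0.144).

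Genes of cofactor supply and conjugate handling were taken from a list of 65 companion genes, of which 62 were tested: enzymes and carriers of UDP-glucuronate, PAPS and glutathione, exporters of conjugates, other conjugating enzymes and regulators. In LAC against NUL 5 were higher and 7 lower, where 2.72% and 6.49% of all genes were, and in ID6 against LAC 8 were higher and 10 lower, where 18.1% and 4.73% of all genes were. Of the 4 genes listed under UDP-glucuronate 3 were higher in LAC than in NUL and 2 lower in ID6 than in LAC. These 4 were Ugp2, Ugdh, Slc35d1 and Gusb, and Gusb is beta-glucuronidase, which cleaves glucuronides and is no gene of cofactor supply. Ugdh, which makes UDP-glucuronate, was at 62.2 to 85.7 TPM in NUL, 94.9 to 171 TPM in LAC and 67.1 to 91.8 TPM in ID6. Every LAC mouse was above every mouse of the other stages, and the log2 difference was 0.86 ± 0.12 (SE, adjusted p = 0.000222) for LAC against NUL, and -0.75 ± 0.13 (SE, adjusted p = 0.000315) for ID6 against LAC.

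Of the 7 tested genes of PAPS and sulfate supply 0 were higher and 1 lower in LAC against NUL, and 2 were higher and 1 lower in ID6 against LAC. Slc35b2, the carrier of PAPS into the Golgi, was at 10.4 to 14.9 TPM in LAC and 18.9 to 21.1 TPM in ID6, with 0.55 ± 0.07 (SE, adjusted p = 3.58e-05). Of the 6 tested genes of glutathione synthesis and turnover 0 were higher and 1 lower in lactation, and 1 was higher and 2 lower after weaning.

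Among exporters and other enzymes Abcc4, an efflux pump for organic anions, and Ephx1, microsomal epoxide hydrolase, were higher in LAC and lower in ID6. Abcc4 was at 1.07 to 2.52, 1.93 to 5.45 and 1.09 to 2.37 TPM in NUL, LAC and ID6, with overlapping stages, and Ephx1 at 215 to 368, 366 to 508 and 252 to 351 TPM. LAC against NUL was 0.68 ± 0.19 (SE, adjusted p = 0.0297) for Abcc4, and 0.55 ± 0.12 (SE, adjusted p = 0.0062) for Ephx1. ID6 against LAC was -0.78 ± 0.20 (SE, adjusted p = 0.00733) for Abcc4, and -0.60 ± 0.12 (SE, adjusted p = 0.00187) for Ephx1. For Abcc4 the mice numbered under 200 were at 1.09 to 1.82 TPM in NUL and 3.68 to 5.45 TPM in LAC, while from 200 upward NUL was at 1.07 to 2.52 and LAC at 1.93 to 2.5 TPM.

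Of the 18 regulators 3 were lower in LAC than in NUL, and 4 were higher and 1 lower in ID6 than in LAC, the 4 being near the share of all genes given above. Stat5a was lower in LAC than in NUL, at -0.55 ± 0.10 (SE, adjusted p = 0.00208). In ID6 against LAC Ghr, the growth hormone receptor, was higher by 0.63 ± 0.08 (SE, adjusted p = 2.71e-05). Stat5a and Stat5b, transcription factors downstream of it, were higher there by 0.53 ± 0.11 (SE, adjusted p = 0.00141), and 0.55 ± 0.09 (SE, adjusted p = 0.000352).

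The label number was tested in the 13 NUL and LAC mice with stage in the model, as 200 and above minus under 200. Of the 55 genes 34 were lower and 7 higher in the upper range, against 9.14% lower and 16.4% higher among all 16179 genes tested, and 14 did not pass. The median log2 difference was -0.39 over the 55 genes and 0.05 over all genes. By family 13 of 17 Ugt, 9 of 17 Sult and 12 of 21 Gst were lower. All 41 calls kept their sign with median-ratio and quantile scaling, and 34 lower and 3 higher calls held with the former, 29 lower and all 7 higher with the latter. In NUL mice alone 21 genes were lower and 2 higher, where 816 and 1942 of all 16259 genes were. In LAC mice alone 19 were lower and 6 higher, where 674 and 662 of all 15952 genes were.

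Among the genes with the largest differences was Ugt3a1. It was at 111 to 119.8 TPM in NUL and 88.6 to 94.3 TPM in LAC mice numbered under 200, and at 18.9 to 29 and 5.93 to 8.11 TPM in those from 200 upward. Its log2 difference was -2.83 ± 0.20 (SE, adjusted p = 6.89e-07). That of Ugt1a9, whose ranges are given above, was -2.55 ± 0.16 (SE, adjusted p = 2.97e-07).

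Sult3a1 was at 89 to 189 and 141 to 202 TPM in NUL and LAC mice numbered under 200, against 0.72 to 14.5 and 5.13 to 57.3 TPM from 200 upward, a log2 difference of -3.77 ± 0.62 (SE, adjusted p = 0.000752) that was not called in LAC alone (-2.64, adjusted p = 0.0865). Sult3a2 differed by -3.42 ± 0.44 (SE, adjusted p = 0.000136), and Sult5a1 by -3.01 ± 0.38 (SE, adjusted p = 9.81e-05). For all 3 genes the lower-range mice were above the upper-range mice of the same stage without overlap. Sult2a8 differed by -1.73 ± 0.19 (SE, adjusted p = 3.17e-05), again without overlap in either stage. Gsta1 differed by -1.37 ± 0.31 (SE, adjusted p = 0.00612) and Gsta2 by -1.23 ± 0.21 (SE, adjusted p = 0.00102). In NUL mice alone the ranges of both overlapped and neither was called, at -1.02 ± 0.51 (SE, adjusted p = 0.203) and -1.15 ± 0.35 (SE, adjusted p = 0.0612).

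The other members past both thresholds for the label number were Ugt1a10, Gstm3, Sult2a7, Ugt3a2 and Ugt2b37. Ugt1a10 differed by -1.01 ± 0.12 (SE, adjusted p = 8.18e-05), with -0.96, adjusted p = 0.00529 in NUL alone, and Gstm3 by -1.11 ± 0.22 (SE, adjusted p = 0.00248), with -0.83, adjusted p = 0.126 in LAC alone. Sult2a7, low outside the mice numbered under 200, differed by -2.13 ± 0.24 (SE, adjusted p = 3.99e-05). Ugt3a2 was at 196 to 242 TPM in NUL and 246 to 281 TPM in LAC mice numbered under 200, and at 109 to 121 and 87.5 to 99.7 TPM in the others, a log2 difference of -1.18 ± 0.10 (SE, adjusted p = 3.9e-06). Its ranges did not overlap in either stage, and in NUL alone it was -0.90 ± 0.09 (SE, adjusted p = 0.00116). Ugt2b37, one of the Ugt2b enzymes, was at 0.8, 1.71 and 11.3 TPM in NUL, 1.8, 5.2 and 10.7 TPM in LAC and 0.53, 1.82 and 2.88 TPM in ID6 with overlapping stages, and differed by -1.34 ± 0.25 (SE, adjusted p = 0.00169) between the ranges.

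Genes that were higher in the upper range included Sult1c2, at 7.89 to 9.65 TPM in NUL and 4.97 to 7.32 TPM in LAC mice numbered under 200, and at 23 to 35.6 and 37.4 to 43.1 TPM in the others. Its log2 difference was 2.04 ± 0.17 (SE, adjusted p = 2.45e-06), and the ranges did not overlap in either stage. Sult2a3 differed by 2.21 ± 0.52 (SE, adjusted p = 0.00739), with 0.97 ± 0.22 (SE, adjusted p = 0.0373) in LAC alone. The smaller differences of Ugt1a6b at 0.50 ± 0.15 (SE, adjusted p = 0.0287), Gstm2 at 0.47 ± 0.14 (SE, adjusted p = 0.0221) and Ugt1a6a at 0.41 ± 0.11 (SE, adjusted p = 0.0129) were not called with median-ratio scaling or in NUL mice alone. In LAC mice alone the Ugt1a6b difference was 1.01 ± 0.11 (SE, adjusted p = 0.00192), and in NUL mice alone it was 0.06 ± 0.12 (SE, adjusted p = 0.756). The interaction of stage and range, described below, did not pass the test for Ugt1a6b. Ugt1a6b was no longer called without any 1 of mice NUL_13, LAC_102, LAC_133, LAC_200, LAC_213, LAC_240 and LAC_36 (log2 difference 0.42 to 0.50, adjusted p = 0.052 to 0.0608). Without mouse NUL_4, Gstm2 was no longer called (log2 difference 0.44, adjusted p = 0.0541).

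**Figure D5:**
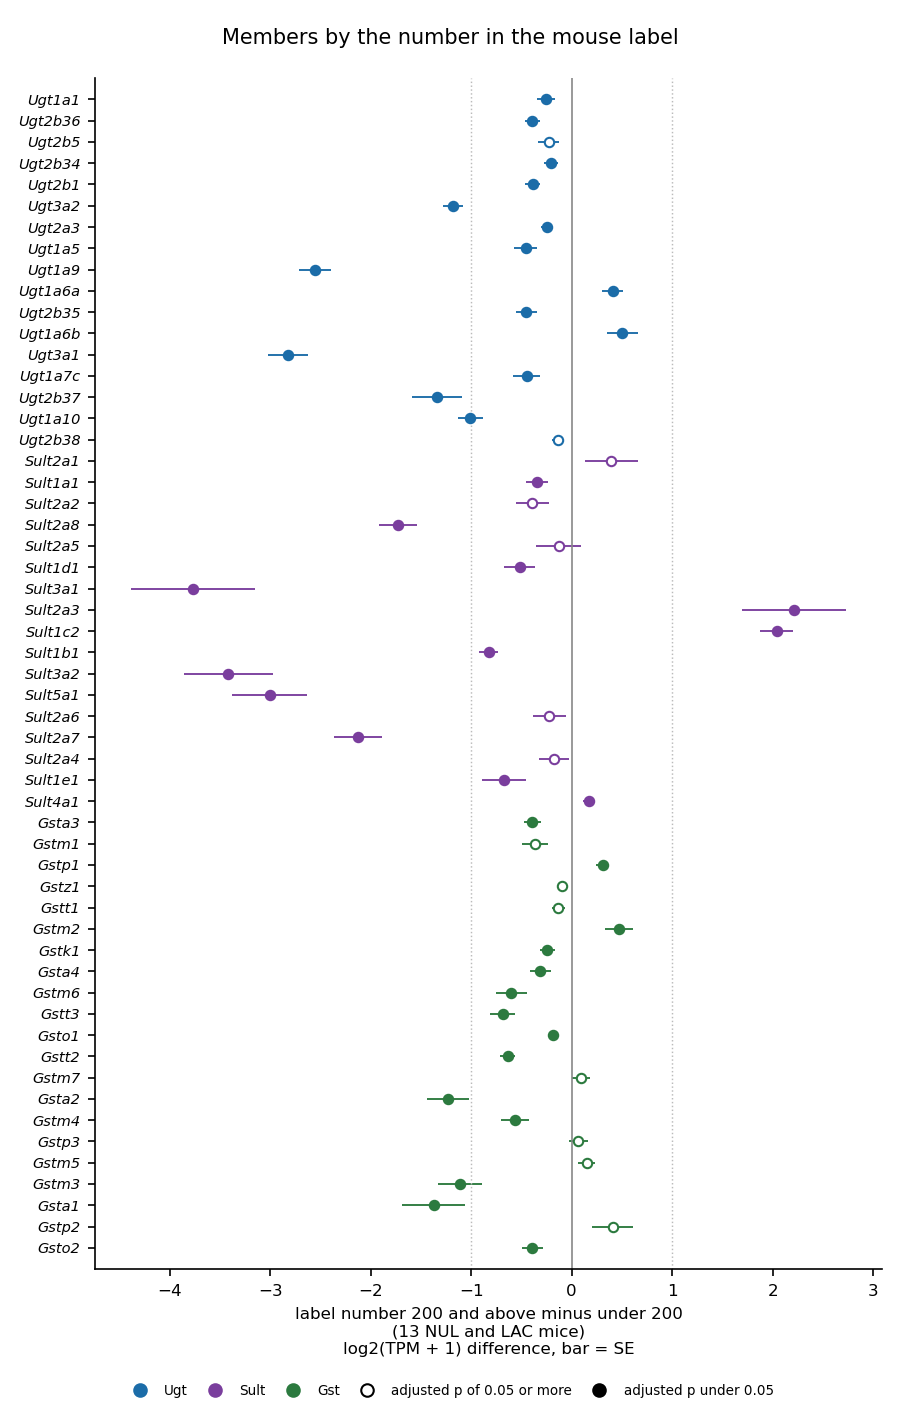
Difference in log2(TPM + 1) between mice with label numbers of 200 and above and mice numbered under 200, for the 55 tested genes in 13 NUL and LAC mice, with stage in the model. Bars are the SE of the fit, filled points have an adjusted p under 0.05 and dotted lines mark a difference of 1. Of the filled points 34 lie left of 0 and 7 right of it.

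Whether the lactation difference itself depended on the range was tested as an interaction of stage and range. It passed for 3 of the 55 genes, against 0.111% of all genes. That of Ugt3a1 was -1.30 ± 0.18 (SE, adjusted p = 0.0222): LAC was lower than NUL, with a log2 difference of -1.65 ± 0.20 (SE, adjusted p = 0.000463) in the upper range, and of -0.34 ± 0.06 (SE, adjusted p = 0.0399) in the lower. Sult2a7, at 5.25 to 8.19 TPM in NUL and 1.11 to 1.63 TPM in LAC mice numbered under 200 and 0.07 TPM or less in the other NUL and LAC mice, gave 1.62 ± 0.18 (SE, adjusted p = 0.0128). Gstm5, at 26.6 to 28.4 TPM in NUL and 33.9 to 35.1 TPM in LAC of the upper range and 29.3 to 29.7 and 24.2 to 25.5 TPM in the lower, gave 0.56 ± 0.08 (SE, adjusted p = 0.0187). Gstm5 falls outside the rule for named genes and was chosen after its values were seen.

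Companion genes moved with the number as well. Of the 62 tested 21 were lower and 6 higher in the upper range, against the 9.14% and 16.4% of all genes, and 7 of the 10 export and uptake genes were lower. Zhx2, a transcription factor for which BALB/cJ mice are known to carry an allele of low expression, was at 2.36 to 2.79 TPM in NUL and 3.14 to 3.73 TPM in LAC mice numbered under 200. It was at 0.08 to 0.12 TPM in NUL, 0.06 to 0.13 TPM in LAC and 0.06 to 0.27 TPM in ID6 mice from 200 upward, and the log2 difference was -1.85 ± 0.07 (SE, adjusted p = 2.05e-09). Nr1i3, the CAR receptor that regulates many conjugating enzymes, differed by -0.92 ± 0.10 (SE, adjusted p = 2.4e-05). Zhx2 and Nr1i3 fall outside the rule for named companion genes and were chosen after their values were seen, and their part in the differences of the conjugation genes was not tested. All 5 Kupffer cell markers were also higher in the upper range.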

How the data were processed

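RNA from livers of 19 female Balbc mice was sequenced (7 NUL, 6 LAC, 6 ID6, oligo(dT) selection, paired reads). The authors deposited TPM per gene, made with RSEM 1.3.1 on GRCm38 with an Ensembl annotation. Their test of differences needs read counts and was left out here.

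TPM were tested as log2(TPM + 1) with limma 3.58.1 (trend, R 4.3.3) over all 19 mice, leaving out genes that averaged under 0.1 TPM, and p-values were adjusted by the Benjamini-Hochberg method over all 16230 genes. Every log2 difference is on the log2(TPM + 1) scale, which understates changes of low genes. No pair of the 19 mice had identical values. The label number was tested in 13 NUL and LAC mice with stage as covariate. TPM keep no depth, so no counting interval is given. The labels name separate mice, and p-values measure the spread between them. Alternatives covered pseudocount, filter, scaling, robust moderation, samples in the fit, number range, summed paralogs and each mouse left out.

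Genes named were, in each family, the 4 with the highest mean TPM, the 6 largest rises and 6 largest falls called in each stage comparison at a mean of at least 1 TPM, the 5 largest range differences in each direction under the same limits, and all past both thresholds in any of these. Companion genes named had an adjusted p under 0.05 and a log2 difference of at least 0.5 in size in a stage comparison. Members and lists were chosen with earlier results of these data known. Shared transcript windows are exact matches of 100 bases in the reference transcripts. Promoters are RefSeq's, aligned in pairs with Biopython 1.88. Protein sequences were not used here.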

Additional observations from a re-analysis of the deposited data

Results flagged for a closer look

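In 5 of 114 groups of mice examined 1 value stood apart from its group, where chance alone gives about 1 in 20. For Gstm3 mouse ID6_230 was at 11.68 TPM and the next at 8.84 TPM. For Sult3a2 mouse ID6_216 was at 3.92 TPM and the next at 1.44 TPM. For Sult2a7 mouse ID6_218 was at 0.3 TPM and the next at 0.07 TPM. For Ugt2b37 mouse NUL_13 was at 11.35 TPM and the next at 3.86 TPM. For Gstp3 mouse NUL_221 was at 36.31 TPM, below the next at 44.72 TPM.

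The difference between LAC and NUL itself differed between the ranges of the label number for 3 genes (limma interaction, upper minus lower range). It was 1.62 for Sult2a7, at an adjusted p of 0.0128, where the LAC and NUL mice of the upper range were at 0.07 TPM or less. It was -1.30 for Ugt3a1, at an adjusted p of 0.0222, with the fall in lactation larger in the upper range. It was 0.56 for Gstm5, at an adjusted p of 0.0187.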

How the results depend on the processing

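Of 63 results for single members, 24 kept their call under every alternative run, 18 lost it without 1 mouse and 39 under another setting, and no value was reversed. For LAC against NUL the 9 higher members became 4 with only those stages in the fit and 16 with the number range as covariate, and 7 to 12 with a mouse left out. Gstm1, Gstm4, Gstt3 and Sult1a1 were among the higher calls lost with only those stages, and the lower call of Ugt1a6b was lost there too. The 3 lower became 8 with the covariate, 5 among mice numbered 200 and above and 5 among those under 200, and 2 to 4 with a mouse left out. The 2 past both thresholds became 7, 8 and 4 in these fits, 1 with paralogs summed and 2 to 5 with a mouse left out. The fit of mice numbered under 200 was chosen after seeing the data.

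For ID6 against LAC the 6 higher became 1 with median-ratio scaling and 2 with paralogs summed (4 to 7 with a mouse left out), the 16 lower were 11 to 18 with a mouse left out, and the 9 past both thresholds became 5 with the covariate, 4 with paralogs summed and 4 to 10 with a mouse left out. Among mice numbered 200 and above 9 members were higher and 14 lower in this comparison. Median-ratio scaling moved the calls over all genes from 2936 higher and 767 lower to 1302 and 1354. For ID6 against NUL the 0 higher became 1 with a minimum of 1 TPM, 2 with the covariate and 1 among mice numbered 200 and above (0 to 1 with a mouse left out). The 2 lower became 0 without a filter, with the covariate and in the upper range, and 1 with only those stages or with paralogs summed (0 to 3 with a mouse left out). For the label number the 7 higher became 3 with median-ratio scaling and 2 in NUL alone (5 to 8 with a mouse left out), and the 34 lower became 21 in NUL and 19 in LAC alone (27 to 36 with a mouse left out). The fits within a range or stage held fewer mice, and the fit with paralogs summed held fewer rows. What caused these changes in the calls was not tested. No paired analysis was possible because the stages share no mouse number. TPM without depth limit what can be said of members under 1 TPM.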
